A study of Mus musculus with 12 samples.

Results

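The genes described here are 10 genes by which the brain takes up, activates, binds and senses long-chain fatty acids, omega-3 fatty acids among them: Mfsd2a, Slc27a1, Slc27a4, Acsl6, Fabp3, Fabp5, Fabp7, Ppara, Ppard and Rxra. They were taken by symbol from the 55385 genes of the expression table, and all 10 were among the 21393 genes tested. The rule used no values, but earlier results of these data were known when the genes were chosen. RNA from the brains of 12 male wild-type mice of the strain C57/BL6J, 8 weeks old at purchase, had been sequenced, with 3 mice in each of 4 groups and 1 library per mouse. The C_W mice were given water and no stress, the C_O mice received a daily krill oil dose of 200 mg/kg over 5 weeks, the MS_W mice water and chronic unpredictable mild stress (CUMS) for 4 weeks, and the MS_O mice both the stress and the krill oil. Libraries are named by group and mouse number, and the authors describe each as 1 whole brain. In such tissue fewer cells of a type and less RNA per cell cannot be told apart. The values are FPKM (mapped fragments of a library per kilobase of transcript, adjusted for its depth), which are per length and can be compared between genes.

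Docosahexaenoic acid, the main omega-3 fatty acid of brain membranes, is not made in quantity by the brain and has to be brought in from blood. Mfsd2a, a transporter of the blood-brain barrier endothelium, carries it in as a lysophospholipid. Slc27a1 and Slc27a4 are fatty acid transport proteins that also couple fatty acids to coenzyme A, and Acsl6 is the acyl-CoA synthetase that activates docosahexaenoic acid in neurons. The fatty acid binding proteins carry the acids within cells, with Fabp3 mainly in neurons, Fabp5 in several cell types and Fabp7 in astrocytes and radial glia. Ppara and Ppard are nuclear receptors that bind fatty acids and act as dimers with Rxra on response elements of target genes.

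A pair of libraries, C_O72 and MS_W95, differed from the rest. Over all tested genes they correlated at r = 0.97 with each other and at no more than 0.937 with any of the other 10, which correlated at 0.959 or more among themselves. The score of the cortex markers (the mean log2(FPKM + 1) of 8 genes) was 2.53 in C_O72 and 2.68 in MS_W95 and 4.15 to 5.91 elsewhere. Nrgn, a gene of cortical neurons, was at 6.67 and 24.6 FPKM in this pair and at 216 or more elsewhere, while the cortex marker Lamp5 was not low in C_O72 (107 FPKM). The cerebellum score was 5.7 and 7.28 in the pair and at most 2.18 elsewhere, and the hindbrain score 2.43 and 1.62 against at most 0.24. Cbln3, a cerebellum marker, was at 60.9 and 222 FPKM in the pair and at most 0.196 in the other 10. Slc6a5, a hindbrain marker, was at 47.2 and 16.4 against at most 0.0538. The cerebellum markers Calb1 and Pvalb were at 7.84 or more in every library. Others of the list were near 0 in the other 10, with Pcp2 at most 0.212 and Gabra6 at most 0.129. In the pair Pcp2 was at 31.3 and 114 and Gabra6 at 23.9 and 91.3. Cbln1 (0.854 or more), Car8 (1.46 or more) and Zic1 (2.59 or more) lay between. Whether all libraries held the same brain regions was not tested. The part of these regions in the results was not tested either. For some of the gene differences that move without the pair, values with and without it are given. Library totals were 50912906 to 75678721 estimated counts, and every C_W library (69768244 or more) had a higher total than every MS_W library (61608502 or less).

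Fabp3 and Fabp7 had the most identical coding sequences of the 3 binding protein genes, so their coding starts are shown. The first 90 coding bases (GENCODE M21 transcripts) differ at 22 positions, which are in capitals.
Fabp3: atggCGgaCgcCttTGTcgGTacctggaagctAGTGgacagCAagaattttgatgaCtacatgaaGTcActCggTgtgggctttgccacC
Fabp7: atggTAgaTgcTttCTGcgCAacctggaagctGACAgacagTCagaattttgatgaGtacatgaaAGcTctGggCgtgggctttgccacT
Over the whole coding sequence Fabp3 and Fabp7 shared 266 of 399 aligned bases (66.7%), and the longest identical run was 20 bases. Fabp5 shared 57.6% with Fabp3 and 56.8% with Fabp7. How reads that align to more than 1 place were treated is not given in the sources used here.

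The receptors of this group bind repeats of the half-site AGGTCA (read on either strand), so the promoters of members, 250 bases before to 50 after a start annotated by RefSeq on GRCm38.p6, were searched for it. It occurred in 4 of the 9 members with an entry (Acsl6, Fabp7, Mfsd2a and Rxra), against 18.1% of 27025 genes. The members had 14 promoter entries between them, and Acsl6 and Rxra also had entries without it. Counted by promoter, the share was 16.3% of all 32851. The direct repeat, 2 such half-sites in the same orientation with 1 base of any kind between them, occurred in 0 members. It was in 0.0481% of all genes and in 0.0396% of all promoters. The promoters of the member with the widest range of values and of the endothelial transporter are shown, with the half-site in capitals (TGACCT is its reverse complement).
Fabp7 promoter, chr10:57784673-57784972, plus strand: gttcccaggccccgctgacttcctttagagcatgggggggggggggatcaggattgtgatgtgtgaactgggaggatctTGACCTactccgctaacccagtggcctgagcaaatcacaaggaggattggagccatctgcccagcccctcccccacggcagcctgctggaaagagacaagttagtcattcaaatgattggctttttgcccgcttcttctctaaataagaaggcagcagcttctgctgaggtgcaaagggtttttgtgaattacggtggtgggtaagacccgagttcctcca
Mfsd2a promoter, chr4:122961139-122961438, minus strand: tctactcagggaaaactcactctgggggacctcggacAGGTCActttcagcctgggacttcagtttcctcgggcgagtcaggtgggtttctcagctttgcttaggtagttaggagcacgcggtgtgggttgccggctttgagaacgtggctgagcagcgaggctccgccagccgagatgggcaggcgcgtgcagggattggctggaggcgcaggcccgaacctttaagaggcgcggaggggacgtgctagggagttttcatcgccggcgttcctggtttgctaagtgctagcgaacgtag
The half-site began at position -171 from the start of Fabp7 and at -213 from that of Mfsd2a. A match of letters is a description and not a binding site.

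Among the 10 genes the median FPKM over 12 libraries ran from 94.1 for Fabp3 to 0.348 for Ppara. Slc27a4 (22.1), Fabp5 (22.0), Acsl6 (18.9) and Fabp7 (16.6) followed Fabp3, then Slc27a1 (11.9), Mfsd2a (9.5), Rxra (5.31) and Ppard (1.63). Fabp3 lay above Slc27a4 and Ppard above Ppara in 12 of 12 libraries with ranges that did not overlap, while the ranges of all other neighbours in this order overlapped. Fabp7 had the widest spread, with a range of 4.14 on the log2(FPKM + 1) scale, wider than in 99.5% of tested genes, and Slc27a4 the narrowest relative to other genes (0.37, wider than in 12.8%).

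**Figure D1:**
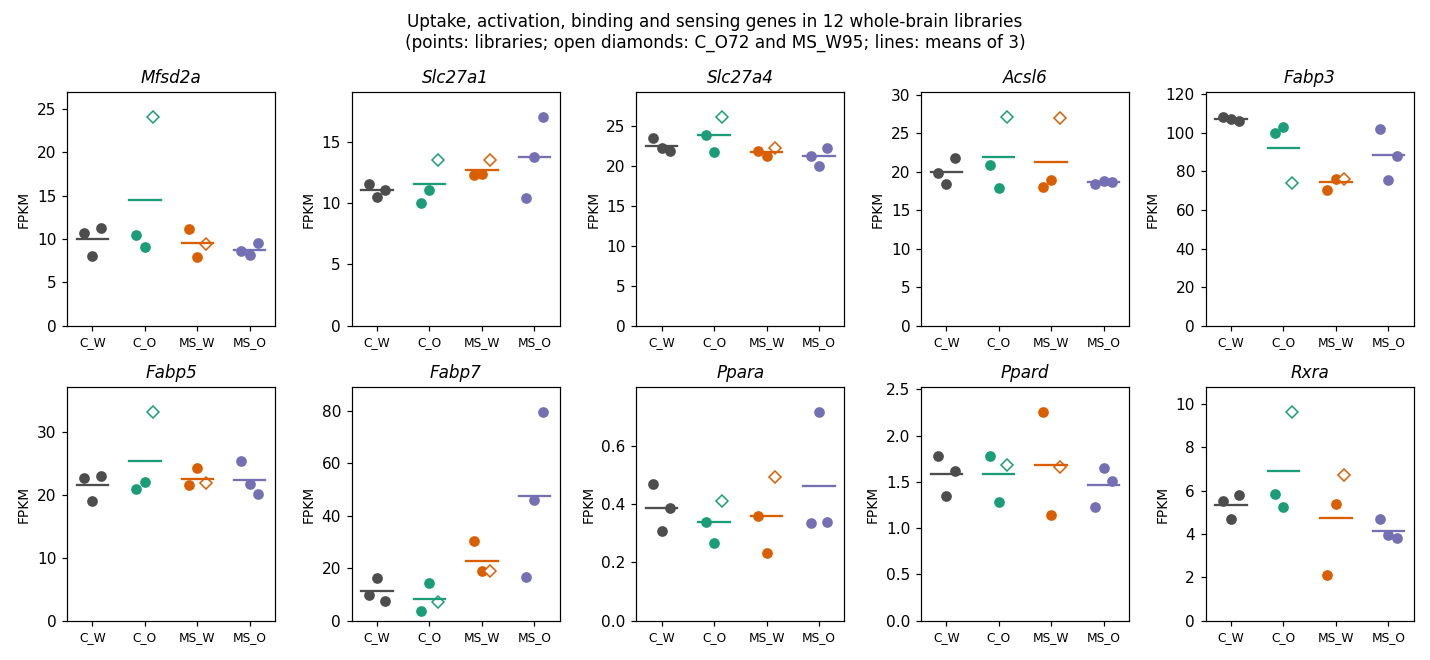
FPKM of the 10 genes (y axis of each panel, starting at 0) in the 3 libraries of each group (x axis), with group means as lines and the libraries C_O72 and MS_W95 as open diamonds. The 3 C_W points of Fabp3 (106 to 108) lie above the 3 MS_W points (70.4 to 76.3), the 6 CUMS points of Fabp7 lie above the 6 others, and C_O72 is the highest point for Mfsd2a, Fabp5, Slc27a4, Acsl6 and Rxra.

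For uptake, Mfsd2a (ENSMUSG00000028655, chr4:122946850-122961188, mm10, minus strand) was level in all groups apart from 1 library. It was at 10.7, 8.07 and 11.3 FPKM in C_W1, C_W64 and C_W70, at 10.5, 9.05 and 24.0 in C_O15, C_O30 and C_O72, at 11.2, 7.9 and 9.42 in MS_W31, MS_W75 and MS_W95, and at 8.58, 8.13 and 9.58 in MS_O13, MS_O46 and MS_O78. Without C_O72 the other 11 libraries lay between 7.9 and 11.3. Krill oil against water in unstressed mice (C_O minus C_W) gave a log2 fold change (log2FC, the difference of group means of log2(FPKM + 1)) of 0.38 with a 95% confidence interval of -0.27 to 1.03 (limma, adjusted p = 0.908), and -0.03 without C_O72. MS_O against C_O gave -0.55 (-1.19 to 0.10, adjusted p = 0.614) with C_O72 and -0.14 without it. In C_O72 the endothelial markers were also high: 10 of 11 had their highest value there, among them Ly6c1 at 28.7 FPKM against 9.62 to 15.6 elsewhere, and the mean log2(FPKM + 1) of the 11 was 3.13 against 2.47 to 2.85, with none at 0.0001. This was not particular to endothelium. C_O72 also had the highest value of 10 of 10 oligodendrocyte, 7 of 8 choroid plexus and 6 of 8 meninges markers. For astrocyte, neuron and microglia markers it was 5 of 11, 2 of 8 and 0 of 9. The part of any of these markers in the Mfsd2a value was not tested.

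Slc27a1 (ENSMUSG00000031808) was at 11.6, 10.5 and 11.1 FPKM in the C_W mice, at 10, 11.1 and 13.5 in C_O, at 12.3, 12.4 and 13.5 in MS_W and at 10.4, 13.8 and 17.0 in MS_O. The MS_W values lay above the C_W values without overlap, and the highest value was in MS_O78. The difference MS_W minus C_W was 0.19 (-0.16 to 0.54, adjusted p = 0.657), and CUMS averaged over both drinks gave 0.20 (-0.04 to 0.45, adjusted p = 0.48). Slc27a4 (ENSMUSG00000059316), its close relative, stayed between 20.0 and 23.9 FPKM in all libraries but C_O72 (26.1), and its group means of 21.2 ± 1.14 (SD, n = 3, MS_O) to 23.9 ± 2.21 (C_O) came from groups whose ranges overlapped in all 4 pairwise comparisons.

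For activation, Acsl6 (ENSMUSG00000020333) was between 17.9 and 21.8 FPKM in 10 libraries. The exceptions were C_O72 at 27.1 and MS_W95 at 27.0. These libraries also had the highest scores of the astrocyte markers (5.25 and 5.26 over 11 genes, against 4.35 to 4.70 in the others), although Slc1a2, an astrocyte glutamate transporter, was lowest in them (67.5 and 60.1 FPKM against 86.7 or more), and the 3 genes most like Acsl6 over the 12 libraries (Fam20a, Sparcl1 and Nedd9, Pearson r of 0.98 to 0.983) had their 2 highest values in the same pair. The part of the astrocyte markers and of the cerebellum and hindbrain scores in the Acsl6 values was not tested. The 3 MS_O values were the closest of any group, 18.6 ± 0.252 FPKM (SD, n = 3).

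Among the binding proteins, Fabp3 was lower and Fabp7 higher with CUMS at an unadjusted p under 0.05, short of the threshold after adjustment, and Fabp5 had no difference at either level. Fabp3 (ENSMUSG00000028773, chr4:130308595-130315463, plus strand) was at 108, 107 and 106 FPKM in the C_W mice, at 100, 103 and 74.1 in C_O, at 70.4, 76.3 and 76.1 in MS_W and at 102, 75.3 and 87.8 in MS_O. The C_W values lay closely together (107 ± 0.944, SD, n = 3) and every MS_W value was below every C_W value. The ratio of the MS_W to the C_W mean was 0.695, and the log2FC was -0.52 (SE 0.143, 95% interval -0.84 to -0.20), with an adjusted p of 0.289 by limma. In mice given krill oil the same contrast was -0.06 (-0.38 to 0.26, adjusted p = 0.92). It ran from -0.21 (without C_O72) to 0.05 over the fits that leave out 1 library each, and was -0.17 without MS_O13. Its direction was thus not stable. The interaction of CUMS and krill oil was 0.46 (0.01 to 0.91, adjusted p = 0.665), so the 2 stress effects were not shown to differ after adjustment. CUMS averaged over drinks gave -0.29 (-0.51 to -0.06, adjusted p = 0.341).

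The C_O values of Fabp3 also lay below the C_W values without overlap. That difference was -0.22 (-0.54 to 0.09, adjusted p = 0.908), and -0.07 without C_O72. Without both C_O72 and MS_W95, MS_W minus C_W was -0.54 with an adjusted p of 0.0768. In the same limma fit the CUMS average was -0.37 (adjusted p = 0.075) and the interaction 0.33 (adjusted p = 0.712). Fabp3 passed the adjusted threshold of 0.05 for MS_W against C_W with array weights (-0.54, adjusted p = 0.0145, where 3.85% of all tested genes passed) and with DESeq2 on the estimated counts (-0.62, adjusted p = 0.046, where 1.82% passed), and not with edgeR (-0.62, adjusted p = 0.359).

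Fabp7 (ENSMUSG00000019874, chr10:57784881-57788450, plus strand), the binding protein of astrocytes and radial glia, was at 9.98, 16.4 and 7.61 FPKM in the C_W mice, at 3.58, 14.6 and 7.23 in C_O, at 30.3, 18.9 and 18.9 in MS_W and at 16.8, 46.2 and 79.5 in MS_O. All 6 CUMS libraries (16.8 to 79.5, median 24.6) lay above all 6 others (3.58 to 16.4, median 8.79), although the closest of them, MS_O13 and C_W64, were 16.8 and 16.4. The mean of the 6 CUMS libraries was 3.54 times that of the others, with a log2FC of 1.63 (SE 0.397, 0.75 to 2.51, adjusted p = 0.277). By drink, MS_W minus C_W was 0.97 (-0.27 to 2.21, adjusted p = 0.555) and MS_O minus C_O was 2.28 (SE 0.561, 1.04 to 3.52, adjusted p = 0.479). The interaction of 1.31 (-0.45 to 3.07, adjusted p = 0.665) does not show that the stress effect differed with krill oil.

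Fabp7 passed the adjusted threshold under some alternatives. For CUMS averaged over drinks these were array weights (adjusted p = 0.0215), by which 9.94% of all tested genes passed, and DESeq2 (1.65, adjusted p = 0.00981), by which 1.45% passed, and not edgeR (1.66, adjusted p = 0.36). For MS_O minus C_O these were DESeq2 (2.40, adjusted p = 0.0122, with 0.804% of all genes) and the limma fit without MS_O13 (2.88, adjusted p = 0.0469, with 0.524%). Without C_O72 and MS_W95 the CUMS average was 1.67 (adjusted p = 0.118). The astrocyte marker score was 4.35 to 4.56 in C_W, 4.45 to 5.25 in C_O, 4.58 to 5.26 in MS_W and 4.44 to 4.70 in MS_O, so that MS_W lay above C_W without overlap. Of its 11 genes 8 had a log2FC above 0 for MS_W minus C_W (median 0.38) and 3 for MS_O minus C_O (median -0.08). Both medians include a library of the pair, MS_W95 with a score of 5.26 and C_O72 with 5.25. The other scores were 4.63 and 4.58 in MS_W and 4.45 and 4.53 in C_O. The part of the astrocyte markers in the Fabp7 difference was not tested.

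Fabp5 (ENSMUSG00000027533, chr3:10012548-10016607) was between 19.1 and 25.4 FPKM in every library but C_O72 (33.1), and its CUMS average was -0.04 (-0.30 to 0.21). Of the 3 binding protein transcripts, Fabp3 made up 64.8% to 80.3% of their summed FPKM in the 6 unstressed libraries and 46.8% to 70.8% in the CUMS libraries, while Fabp7 made up 2.87% to 11.6% and 11.6% to 42.4%. Fabp5 made up 10.7% (MS_O78) to 28.9% (C_O72), and in C_O72 the Fabp7 share was 6.32%. Fabp3 was 28.0 times as high as Fabp7 in C_O15 and 1.1 times as high in MS_O78.

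**Figure D2:**
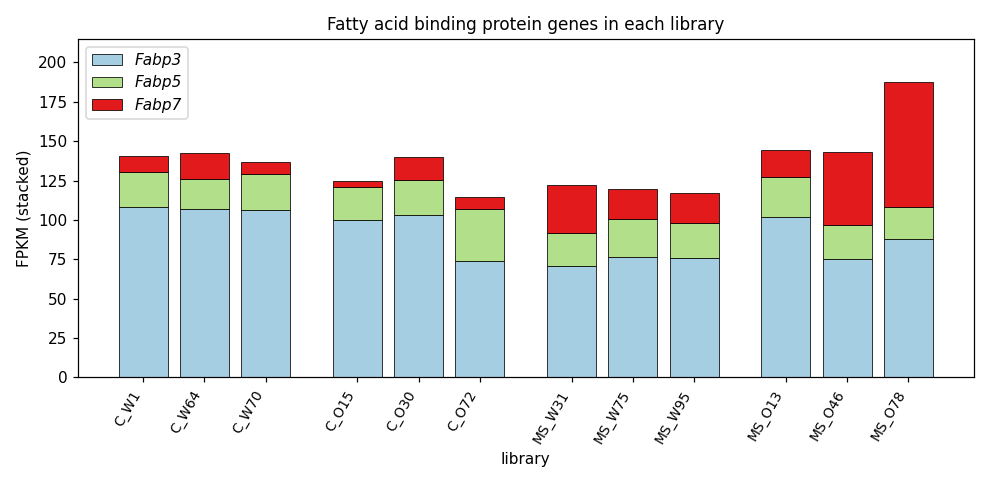
Stacked FPKM of Fabp3, Fabp5 and Fabp7 (y axis, from 0) in each of the 12 libraries (x axis, ordered by group). The Fabp7 part is largest in MS_O78 (79.5 FPKM) and MS_O46 (46.2), and the Fabp3 part is lowest in MS_W31 (70.4) and C_O72 (74.1).

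Markers of brain regions differed along with both genes. The olfactory bulb score, the mean log2(FPKM + 1) of 8 genes (Cdhr1, Doc2g, Th, Dlx1, Dlx2, Dlx5, Eomes and Sp8), was 1.39 to 3.33 in C_W, 0.8 to 2.36 in C_O, 1.1 to 3.72 in MS_W and 2.8 to 4.94 in MS_O. It was highest in MS_O46 (4.94) and MS_O78 (4.92), the libraries with the most Fabp7, and low in C_O72 (0.8), C_O15 (1.06) and MS_W95 (1.1), which had 7.23, 3.58 and 18.9 FPKM of Fabp7. Cdhr1, a gene of bulb projection neurons, was at 86.5 and 83.7 FPKM in MS_O46 and MS_O78 and at 0.498 in C_O15, and Dlx2 and Dlx5 were listed at 0.0001, the value given to genes without an estimate, in C_O72. For MS_O minus C_O all 8 markers were higher at an unadjusted p under 0.05 (8.88% of all tested genes were past that level), with a median log2FC of 2.55. For MS_W minus C_W 0 of 8 were (10.5% of all tested genes), with a median of -0.16 that includes MS_W95. The scores of MS_W31 and MS_W75 were 3.72 and 3.05, against 3.15, 3.33 and 1.39 in C_W. With this score as a covariate, an alternative added after seeing the data, the Fabp7 difference MS_O minus C_O was 0.85 (adjusted p = 1), MS_W minus C_W was 0.97 (adjusted p = 0.393) and the CUMS average was 0.91 (adjusted p = 0.672). The scores of MS_O and C_O did not overlap, so this fit cannot separate score from group there. MS_W and C_W had nearly equal mean scores, with MS_W95 at 1.1, so the covariate could change little between them. No conclusion is drawn from either value.

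The cortex score (8 genes, Nrgn, Slc17a7 and Rtn4r among them) was 5.47 to 5.73 in C_W, 2.53 to 5.91 in C_O, 2.68 to 4.44 in MS_W and 4.15 to 5.42 in MS_O. The 6 libraries with at least 100 FPKM of Fabp3 were the 6 with a cortex score of 5.42 or more. For MS_W minus C_W, 7 of the 8 cortex genes were lower without overlap (24.6% of all tested genes did not overlap in either direction). An unadjusted p under 0.05 was found for 4 of 8 (10.5% of all tested genes), with a median log2FC of -1.54. The neuron score (8 genes found in neurons generally) was also lower in every MS_W library (7.04 to 7.11) than in every C_W library (7.24 to 7.35), and was 7.03 to 7.35 over all 12. Its genes did not move as a whole. For MS_W minus C_W 3 of the 8 had a log2FC above 0 and 4 were lower without overlap. Only 1 was lower at an unadjusted p under 0.05 by limma. The part of the neuron score in the Fabp3 difference was not tested. With the cortex score as a covariate Fabp3 was at -0.32 for MS_W minus C_W (adjusted p = 0.404) and Fabp7 at 1.56 for the CUMS average (adjusted p = 0.139). The cortex scores of MS_W and C_W did not overlap, so this fit cannot separate score from group for Fabp3.

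**Figure D3:**
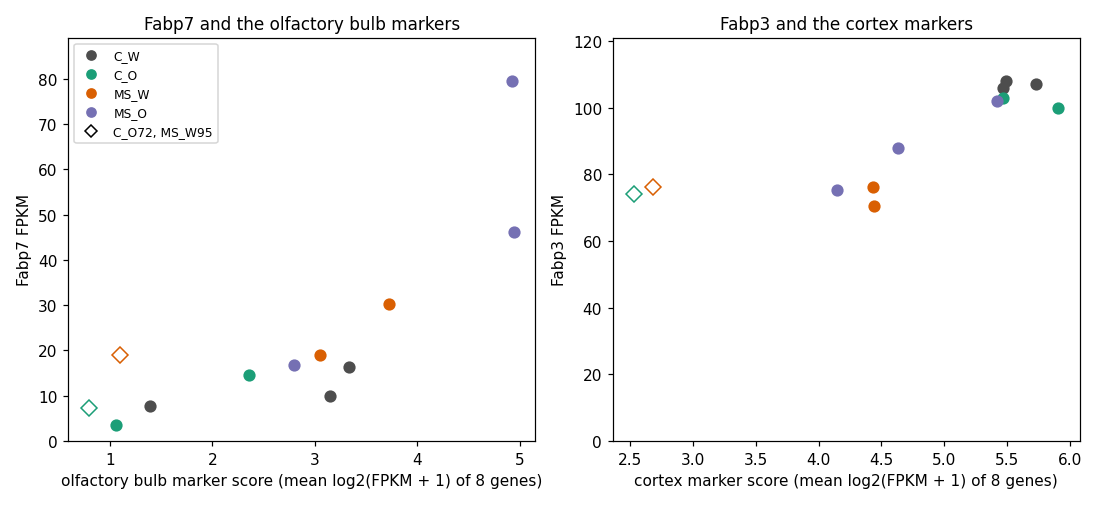
FPKM of Fabp7 against the olfactory bulb score (left) and of Fabp3 against the cortex score (right), 1 point per library, coloured by group, with C_O72 and MS_W95 as open diamonds. Fabp7 is highest at bulb scores of 4.92 and 4.94, and Fabp3 is at 100 or more where the cortex score is 5.42 or more.

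Of the sensing receptors, Ppara (ENSMUSG00000022383) was the lowest of the 10 genes, between 0.232 and 0.491 FPKM in 11 libraries and at 0.714 in MS_O46, and as few as 52 estimated counts stood behind a value. Ppard (ENSMUSG00000002250) was between 1.14 (MS_W75) and 2.25 (MS_W31), with both extremes in MS_W. For these 2 genes every pairwise log2FC was between -0.11 and 0.12, on a scale that understates changes at such low FPKM. Pairwise ratios of mean FPKM were 0.873 to 1.36 for Ppara, the highest being MS_O over C_O with MS_O46 at 0.714. For Ppard they were 0.87 to 1.06.

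Rxra (ENSMUSG00000015846, chr2:27676440-27762957, plus strand), the shared dimer partner, was at 5.51, 4.68 and 5.79 FPKM in the C_W mice, at 5.86, 5.23 and 9.62 in C_O, at 2.10, 5.38 and 6.72 in MS_W and at 4.68, 3.94 and 3.82 in MS_O. Every MS_O value was below every C_O value, and the lowest (MS_W31) and highest (C_O72) values stood away from the rest. MS_O minus C_O was -0.58 (-1.26 to 0.10, adjusted p = 0.609) and -0.35 without C_O72. The CUMS average was -0.41 (-0.89 to 0.07, adjusted p = 0.459), and it was -0.21 without MS_W31, -0.29 without C_O72 and -0.54 without MS_W95. Without both C_O72 and MS_W95 it was -0.43 (limma, adjusted p = 0.218). Luzp1, among the 3 genes most like Rxra (r = 0.91), was also lowest in MS_W31 (2.52 FPKM against 8.65 to 19.2).

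Over all 10 genes, 0 passed an adjusted p of 0.05 in any of the 7 comparisons by limma, and 0 by edgeR on the estimated counts, while DESeq2 passed the members given above. The share of all tested genes that passed was 0.00467% for MS_W minus C_W, MS_O minus C_O, MS_O minus MS_W and the krill oil average, 0.00935% for the CUMS average, and 0% for C_O minus C_W and the interaction. At an unadjusted p under 0.05 there was 1 of 10 for MS_W minus C_W (Fabp3), with 10.5% of all tested genes, 1 for MS_O minus C_O (Fabp7), with 8.88%, 2 for the CUMS average (both), with 12.5%, and 1 for the interaction (Fabp3), with 7.23%. Krill oil gave 0 of 10 in unstressed mice (3.55% of all genes), in stressed mice (6.09%) and on average (3.22%). Groups did not overlap for 3 of 10 in MS_W against C_W (Fabp3, Fabp7 and Slc27a1), where 24.6% of all genes did not, for 2 in MS_O against C_O (Fabp7 and Rxra), with 12.2%, and for 1 in C_O against C_W (Fabp3), with 9.42%. They overlapped for all 10 in MS_O against MS_W, where 12.3% of genes did not overlap. In the comparison of 6 libraries with 6, 1 of 10 (Fabp7) did not overlap for CUMS, with 0.963% of all genes, and 0 of 10 for krill oil, with 0.0888%.

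**Figure D4:**
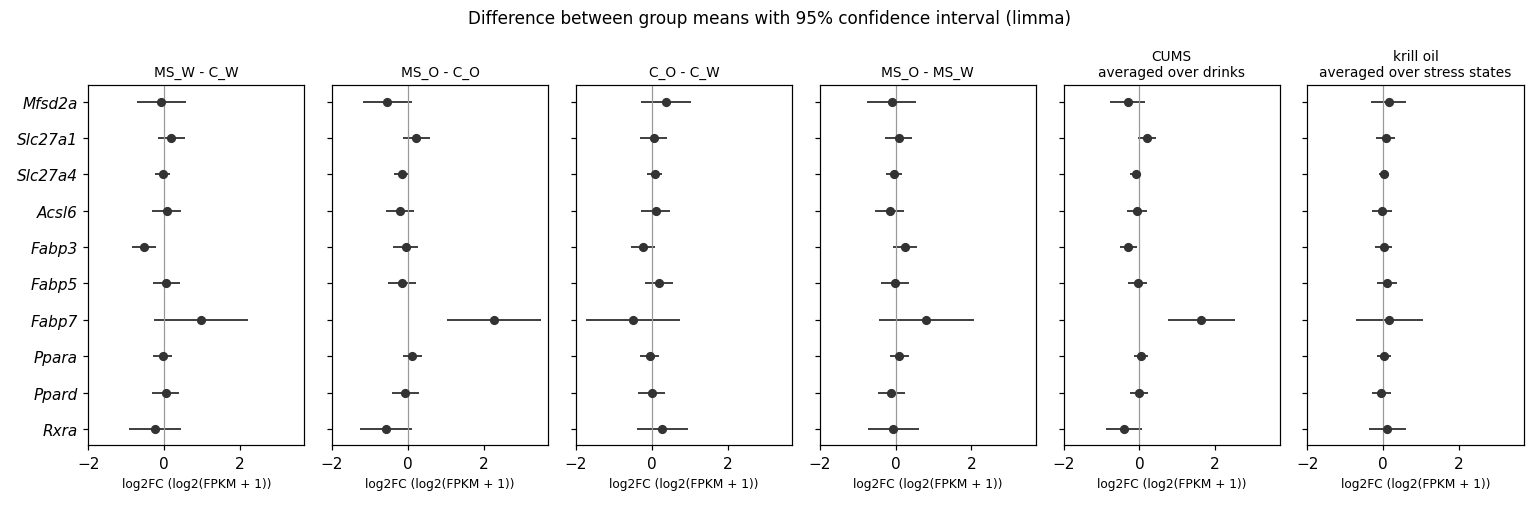
Log2FC (x axis, difference of means of log2(FPKM + 1)) with 95% confidence intervals for the 10 genes (y axis) in 6 comparisons from 1 limma fit of 12 libraries. The interval for Fabp7 lies above 0 for MS_O minus C_O (1.04 to 3.52) and the CUMS average (0.75 to 2.51), that for Fabp3 below 0 for MS_W minus C_W (-0.84 to -0.20) and the CUMS average (-0.51 to -0.06), and all intervals for krill oil include 0.

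The krill oil comparisons ask whether an oral omega-3 source was accompanied by other levels of the genes that handle omega-3 fatty acids. Averaged over stress states the log2FC was between -0.05 (Ppard) and 0.16 (Fabp7). The intervals were narrow for Slc27a4 (-0.12 to 0.16), Fabp3 (-0.22 to 0.23) and Slc27a1 (-0.18 to 0.31), wider for Mfsd2a (-0.32 to 0.60) and Rxra (-0.37 to 0.59), and widest for Fabp7 (-0.72 to 1.04). That of Ppara (-0.16 to 0.20) was also narrow, but the log2(FPKM + 1) scale compresses differences at its low FPKM. These intervals give the sizes that 6 libraries against 6 could not tell from 0, and they do not show that krill oil had no effect.

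Related genes of the pathway were read in the same fit, and 0 of them passed an adjusted p of 0.05 by limma in the 12 libraries. Of the 24 target genes of the PPAR receptors, 20 were tested. In MS_W minus C_W all 20 had a log2FC above 0 (0.01 or more), with a median of 0.28 against 0.062 over all tested genes, but 2 (Acadm and Acaa2, of mitochondrial beta-oxidation) had an unadjusted p under 0.05, a share of 10% where all genes had 10.5%. In MS_O minus C_O 10 of the 20 were above 0, the median was -0.01, and 2 (Ehhadh among them) were higher and 1 (Pdk4) lower at an unadjusted p under 0.05, with 8.88% of all tested genes past that level. The list score was highest in C_O72 (2.5) and MS_W95 (2.34). Without these 2 libraries 17 of 20 were above 0 in both stress comparisons, with medians of 0.20 and 0.19, and for the CUMS average 10 of 20 were higher and 0 lower at an unadjusted p under 0.05, where 22.2% of all genes were past that level in either direction.

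Ehhadh, an enzyme of peroxisomal beta-oxidation, was higher without overlap in MS_O than in C_O (1.51, 2.59 and 2.01 against 0.933, 1.14 and 1.45 FPKM), with a log2FC of 0.47 (adjusted p = 0.479). Pdk4, a kinase that restrains pyruvate oxidation, was lower without overlap in MS_O (1.85 to 2.11) than in C_O (2.34 to 4.97), at -0.49 (adjusted p = 0.508). Without C_O72 and MS_W95 it was -0.24 (adjusted p = 0.376), and Ehhadh was 0.56 (adjusted p = 0.335).

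Among other receptors and coregulators, 11 of 13 were tested, and 1 was lower for MS_W minus C_W and 1 higher for MS_O minus C_O at an unadjusted p under 0.05, Pparg in both. The shares of all tested genes past that level were 10.5% and 8.88%. Pparg, the third PPAR, was at 1.76, 1.84 and 1.39 FPKM in C_W, at 1.33, 1.00 and 0.229 in C_O, at 0.82, 0.643 and 0.719 in MS_W and at 1.52, 2.53 and 2.13 in MS_O. MS_W lay below C_W and MS_O above C_O, both without overlap. The interaction was 1.38 (0.70 to 2.06, adjusted p = 0.455), and MS_W minus C_W was -0.62 (adjusted p = 0.369), which passed with array weights (-0.60, adjusted p = 0.0357, where 3.85% of all genes passed). Without C_O72 and MS_W95 the interaction was 1.10 (adjusted p = 0.205). Nr1h3, a liver X receptor, had an interaction of -0.97 (adjusted p = 0.665), and its 2 highest values were in C_O72 (2.72) and MS_W95 (3.41). Without them it was -0.32.

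Rxrg, a paralog of Rxra that was singled out after its values were seen, was the only related gene past the adjusted threshold in any of the 7 comparisons of the 10 libraries without C_O72 and MS_W95. It was at 3.08, 2.48 and 1.62 FPKM in C_W and at 17.7 and 20.0 in MS_W31 and MS_W75, with a log2FC of 2.57 (adjusted p = 0.025), where 1.15% of all genes passed and 15.4% had an unadjusted p under 0.05. In MS_W95 it was at 1.29, and over all 12 libraries the log2FC was 1.53 (adjusted p = 0.54). Striatum markers moved with it: their score was 2.56 to 3.56 in C_W, 5.48 and 6.07 in MS_W31 and MS_W75, and 2.47 in MS_W95. Among the other groups Rxrg was highest in MS_O13 (16.1) and C_O30 (11.3), with striatum scores of 5.36 and 4.92. Their part in the Rxrg difference was not tested.

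Of the other fatty acid carriers 6 of 12 were tested, and 3 (Slc27a2, Slc27a3 and Cd36) were higher in MS_W than in C_W at an unadjusted p under 0.05 (median log2FC 0.42) and 0 in MS_O than in C_O. Of all tested genes, 10.5% and 8.88% were past that level in these comparisons. Slc27a3 was at 0.522 to 0.797 FPKM in C_W and 0.908 to 1.60 in MS_W, a log2FC of 0.50 (adjusted p = 0.391). Slc27a2 had an interaction of -0.92 (adjusted p = 0.665), and -0.65 without C_O72 and MS_W95. Cd36, a fatty acid translocase, was at 0.189 to 0.452 FPKM in MS_W and at 0.0821 in MS_O13, and was listed at 0.0001 in MS_O46 and MS_O78.

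Of the other acyl-CoA synthetases 5 of 6 were tested, and 1 (Acsl5) was lower in MS_W than in C_W at an unadjusted p under 0.05, where 10.5% of all tested genes were past that level. Acsl5 was at 17.4 to 18.6 FPKM in C_W and at 10.6, 11.3 and 5.01 in MS_W, a log2FC of -0.99 (adjusted p = 0.401), and -0.66 without C_O72 and MS_W95. Acsl1, at -0.25 (adjusted p = 0.568), did not overlap between these groups either, and was at -0.08 without the pair. Acsl4, which prefers arachidonic acid, was at 4.51 FPKM in C_O15, 10.7 in C_O30 and 3.50 in C_O72. It was at 10 to 11.4 in C_W, so these groups overlapped. The log2FC for C_O minus C_W was -0.84 (limma, adjusted p = 0.908), and -0.56 without the pair.

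The phospholipid remodelling genes, which place polyunsaturated chains in membranes, were all tested (14 of 14). For MS_W minus C_W 2 (Lpcat4 and Pla2g4e) were lower at an unadjusted p under 0.05 (10.5% of all tested genes were past it) and the median was 0. For MS_O minus C_O 0 were past that level, with 8.88% of all tested genes. Lpcat4, an acyltransferase, was at 37.3 to 38.5 FPKM in C_W and 23.3 to 26.5 in MS_W, a log2FC of -0.58 (adjusted p = 0.335), and at 40.6, 25.0 and 27.5 in MS_O. Pla2g4e, a calcium-dependent N-acyltransferase, and Pnpla6, a lysophospholipase, had interactions of 0.79 (adjusted p = 0.631) and -0.35 (adjusted p = 0.665), and of 0.74 and -0.18 without C_O72 and MS_W95.

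**Figure D5:**
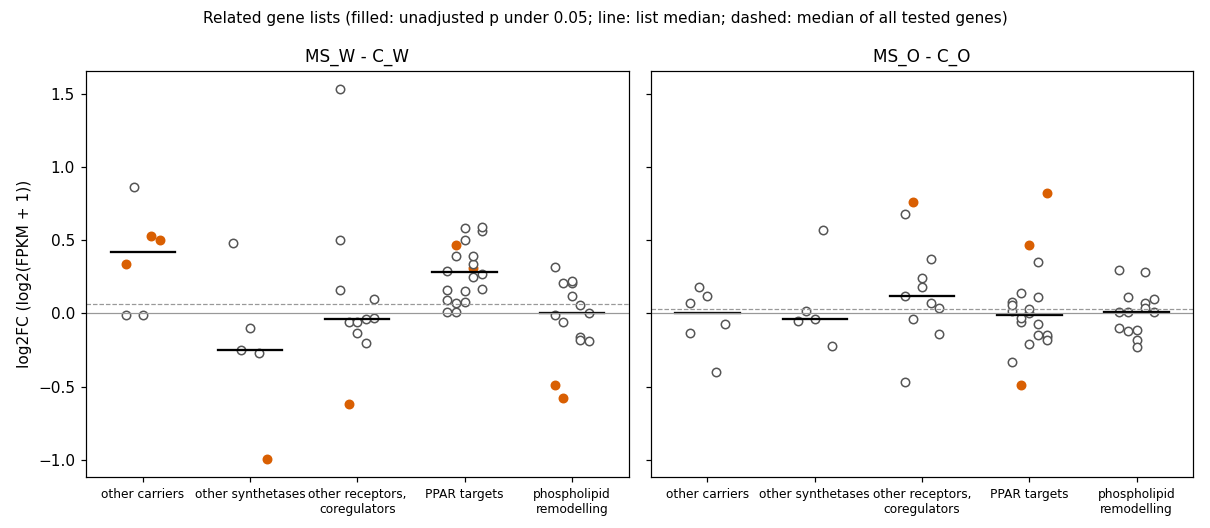
Log2FC (y axis) of each tested gene in 5 related lists (x axis) for MS_W minus C_W (left) and MS_O minus C_O (right), with filled points for an unadjusted p under 0.05, solid lines for list medians and a dashed line for the median of all tested genes. All 20 PPAR target genes lie above 0 on the left, with a median of 0.28, and 10 of 20 on the right, with a median of -0.01.

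The genes most like each member were sought by Pearson r of log2(FPKM + 1) over the 12 libraries among 13621 genes whose mean FPKM was 1 or more, as a description, since libraries that stand apart weigh in every r. Fabp3 was like Rassf3 (0.956) and Rtn4r (0.952), and Rtn4r is 1 of the cortex markers above. Fabp7 was most like Uck1 (0.961) and was also like Cacng5 (0.952). Mfsd2a was most like Borcs6 (0.955), the endothelial marker Ly6c1 (0.948) and Bola2 (0.936). Fabp5 was most like Ufc1 (0.938), Sdr39u1 and Bhlhe41, Slc27a1 most like Dazap1 (0.943), Slc35e4 and Plat, Slc27a4 most like Sez6l2 (0.92), Trip10 and Ccdc184, and Rxra most like Prrg2 (0.942), Luzp1 and Gm6055. The lowest top values were those of Ppara (Med28, 0.857, then Shld1 and Zkscan17) and Ppard (Mon1a, 0.905, then Hexim1 and Cbfb). Among the members themselves r was over 0.7 for Mfsd2a with Slc27a4 (0.84) and Fabp5 (0.76), Acsl6 with Rxra (0.75) and Fabp7 with Slc27a1 (0.72).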

How the data were processed

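The authors trimmed paired-end reads (cutadapt 1.9), aligned them to mm10 (HISAT2 2.0.4), assembled and merged transcripts (StringTie 1.3.4d) and estimated FPKM values with StringTie and Ballgown, per the methods and the submitters' processing notes. The deposited FPKM are scaled to library depth and list genes without an estimate at 0.0001. The deposited estimated counts were not scaled between libraries and follow coverage, so they are not counted reads. They were used in alternatives only.

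Tests used limma 3.58.1 under R 4.3.3. A single model of the 4 group means was fitted by lmFit to log2(FPKM + 1) of the 21393 genes whose mean FPKM reached 0.1, followed by eBayes (trend option) and Benjamini-Hochberg adjustment over all of them. It gave 7 comparisons, being 4 pairwise differences, 2 averages and the interaction. A fold change on the log2(FPKM + 1) scale understates the change of low genes. Nothing states more than that each library is a separate mouse. The p-values of this model rest on the spread between mice within groups, pooled over the 4 groups and moderated across genes.

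All 10 members were named, and from each related list the 3 genes with the smallest unadjusted p over the comparisons. The values of some genes that this rule names are not reported here. The members and lists were chosen with earlier results of these data known. Alternative settings included a pseudocount of 0.1 or 0.01, testing without a filter or above a mean FPKM of 1, quantile normalization, centring each library on its median, only the groups compared, robust eBayes, array weights, edgeR 4.0.16 and DESeq2 1.42.0 on the estimated counts, leaving out each library, and leaving out C_O72 and MS_W95. Region scores as covariates were added after seeing the data. Promoters are from RefSeq (GRCm38.p6) and coding sequences from GENCODE M21, where 9 of 10 members had the start and end of the deposited table. Python 3.11.15, pandas 2.3.3 and matplotlib 3.10.9 were used.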

Additional observations from a re-analysis of the deposited data

Results flagged for a closer look

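Of 66 related genes and members tested, 1 had stress effects that went opposite ways without overlap in mice given water and in mice given krill oil. The share of all tested genes that meet this rule was not computed, so the count is not a result about the pathway. Groups did not overlap for 24.6% of all tested genes in MS_W against C_W and for 12.2% in MS_O against C_O. Pparg was lower in every MS_W than in every C_W library and higher in every MS_O than in every C_O library. The interaction was 1.38 on the log2(FPKM + 1) scale, with an adjusted p of 0.455 by limma, and it was 1.11 without C_O72 (adjusted p = 0.249), where Pparg was at 0.229 FPKM. With the olfactory bulb score or the cortex score as a covariate it was 1.04 (adjusted p = 1) or 1.10 (adjusted p = 0.636).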

How the results depend on the processing

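The count of members past an adjusted p of 0.05 was 0 in all 7 comparisons and changed in few alternatives. For MS_W minus C_W it became 1 (Fabp3) with array weights, where 3.85% of all tested genes passed, and with DESeq2 (1.82%). For MS_O minus C_O it became 1 (Fabp7) with DESeq2 (0.804%). The CUMS average had 2 (Fabp3 and Fabp7) with array weights (9.94%) and 1 (Fabp7) with DESeq2 (1.45%). Over the fits that leave out 1 library each, the count ranged from 0 to 1 for MS_O minus C_O (1 without MS_O13, where 0.524% of all tested genes passed) and was 0 in the other comparisons. Of 384 recomputed member differences, 368 kept their direction and side of the threshold, 7 passed it and 9 reversed. The reversals were Fabp3 for MS_O minus C_O (-0.21 to 0.05 over the fits without 1 library, 0.01 with the bulb score), Mfsd2a for C_O minus C_W (-0.03 to 0.63 without 1 library, -0.03 without C_O72 and MS_W95), the Fabp7 interaction (-0.13 with the bulb score), Rxra for MS_O minus C_O (0.12 with the bulb score) and Slc27a1 for MS_W minus C_W (-0.01 with the cortex score). The causes were not tested. Fits of only the groups compared exist for the 4 pairwise comparisons. No paired analysis was possible because the mouse numbers are not shared between groups. With 3 mice per group, intervals for Fabp7 spanned more than 2 log2 units in pairwise comparisons.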
